A study of Homo sapiens with 9 samples.

Results

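The genes described here are MYC, its obligate partner MAX, and 5 MAX-binding repressors, MXD1, MXI1, MXD3, MXD4 and MNT. Open chromatin at these 7 genes was taken from 4 lists of FAIRE-seq peaks, after overlapping or touching peaks of the lists had been joined into merged regions. A merged region was counted where it lay in the body of a gene or within 50 kb of its transcription start site (TSS), which gave 34 of 40703 regions on the autosomes, X and Y. The genes were chosen by name as a family and their regions were chosen by the position of called peaks, a measured value. Every region therefore has a peak in at least 1 list by construction, and its presence and height are described without a test.

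MYC is a basic helix-loop-helix leucine zipper protein that binds DNA as a heterodimer with MAX, preferentially at the E-box CACGTG, and drives genes of growth, ribosome production and metabolism. The MXD proteins and MNT compete for MAX at the same sites and recruit SIN3 and histone deacetylases, so that the balance between them and MYC sets whether shared targets are activated or repressed. In T cells MYC is strongly induced on antigen receptor signalling and is needed for growth before division, whereas MXD1 and MXI1 are associated with quiescence and differentiation.

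FAIRE (formaldehyde-assisted isolation of regulatory elements) recovers DNA that is poorly crosslinked to protein, and thereby enriches nucleosome-depleted DNA. All samples came from clone E6-1 of the leukaemic CD4+ T cell line Jurkat. The cells were pre-treated with DMSO or with 15 uM of the PKC inhibitor rottlerin, then left non-stimulated (NS), stimulated for 4 h with 24 ng/mL PMA and 1 uM calcium ionophore (ST), rested for 1 day after stimulus withdrawal (SW), or stimulated again (RS). The stimulation time is that of the labels, and the study's methods give a shorter one. Peak lists were analysed for the samples labelled NS DMSO, SW DMSO, NS rottlerin and SW rottlerin, with 1 library each; the other 5 of the 9 samples, including the total input, were not analysed here.

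The labels of the lists could not be taken as settled. The study's methods describe peak calling on the samples given DMSO only, and the merged set formed by these lists has the size the methods give for that merge, whereas the labels put some of the lists under rottlerin. Each list is therefore named by its label alone, and no direction by stimulation or by rottlerin is drawn from it. With 1 library a group there is also no replicate spread, and the lists give no read counts, so the depth behind a value is unknown and no test between lists was possible. A region without a peak in a list was not called there, which does not show that its chromatin was closed.

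The lists held from 18977 peaks (NS DMSO) to 30409 peaks (SW rottlerin), with 20132 in SW DMSO and 23835 in NS rottlerin. The height of a peak is given as its fold enrichment over total input, whose median was between 4.03 and 4.08 in the 4 lists. As a check of the labelled cell line, 5 of 7 T-lineage genes had a peak within 1 kb of the TSS in at least 1 list, and CD3D, CD3E, LCK and CD247 had one in all 4. CD3G had one in 1 list, and CD2 and TRAC had none. The same share over all coding genes was not counted.

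A pair of regions in introns of MXI1, one missing from NS DMSO alone and one found in NS DMSO alone, mark opposite patterns across the lists, and their sequences are shown first. Both are read from the plus strand of GRCh37 (hg19), the build of the lists, and capitals mark matches to any of 11 short motifs searched on both strands. The first is the central 300 bases, chr10:111981626-111981925, of the only region of the 7 genes that had a peak in every list but NS DMSO. The second is the whole of chr10:112035046-112035212, the region with the highest fold enrichment among those called in NS DMSO alone.
MXI1 +14.4 kb: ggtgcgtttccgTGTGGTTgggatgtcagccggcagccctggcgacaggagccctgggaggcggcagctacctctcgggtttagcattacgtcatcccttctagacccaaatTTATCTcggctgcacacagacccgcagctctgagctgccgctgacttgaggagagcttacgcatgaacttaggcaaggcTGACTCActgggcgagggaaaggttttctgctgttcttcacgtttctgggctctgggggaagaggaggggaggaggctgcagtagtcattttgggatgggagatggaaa
MXI1 +67.8 kb: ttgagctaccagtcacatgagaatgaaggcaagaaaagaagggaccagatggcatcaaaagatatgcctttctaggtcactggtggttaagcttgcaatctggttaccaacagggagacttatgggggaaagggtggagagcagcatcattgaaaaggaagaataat
In the first sequence the capitals are, from left to right, a RUNX motif, a GATA motif on the minus strand and an AP1 motif (TGANTCA, with N any base), which starts 41 bp to the right of the midpoint of the region. None of the 11 motifs was matched in the second sequence.

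The E-box CACGTG, the site that MYC-MAX and MXD-MAX dimers share, lay in the central 300 bp of 5 of the 34 regions. It was found in 5.67% of all merged regions and in 8.84% of the 9900 regions within 1 kb of a coding TSS. Of the 5 regions, 3 lay at the promoters of MAX, MXD3 and MXD4, 1 in an MXI1 intron and 1 upstream of MXD4. The sites at MXD3, MXD4 and MXI1 are shown, each with 12 bases on either side, on the plus strand of GRCh37 and with the E-box in capitals, so that the flanks may be compared.
MXD3 +0.5 kb: gcccagccgctgCACGTGggtgccgcgggg
MXD4 -0.2 kb: gcttagcaacagCACGTGgtggcccggccc
MXI1 +66.0 kb: gctagctgctgtCACGTGcaggagtgtgtg
MXD4 -29.0 kb: gaagagtgcctgCACGTGtgctcctgcccc
These sites start at 176739277 on chromosome 5 (MXD3), 2264069 on chromosome 4 (MXD4 promoter), 112033362 on chromosome 10 (MXI1) and 2292761 on chromosome 4 (upstream of MXD4). In the MXD4 promoter and the MXI1 intron the E-box lay within 6 bp of the midpoint of the region. A match describes the letters only; binding was not measured.

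Across the lists, the 34 regions were called most often in SW rottlerin, with 26, followed by NS DMSO and NS rottlerin with 24 each and SW DMSO with 20. Over all merged regions the shares called were 74.5% in SW rottlerin, 46.5% in NS DMSO, 58.4% in NS rottlerin and 49.3% in SW DMSO. The NS DMSO list, the shortest of the 4, thus held 70.6% of the regions at these genes, as did NS rottlerin. A peak in all 4 lists was found at 14 regions (41.2%), against 26.6% of all merged regions. No peak was called in NS DMSO at 10 regions (29.4%), against 53.5%. A peak in every list but NS DMSO was found at 1 region, against 7.08%, and a peak in NS DMSO alone at 2 regions, against 7.83%. Regions called in 1 list only numbered 7, against 38.8%.

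**Figure D1:**
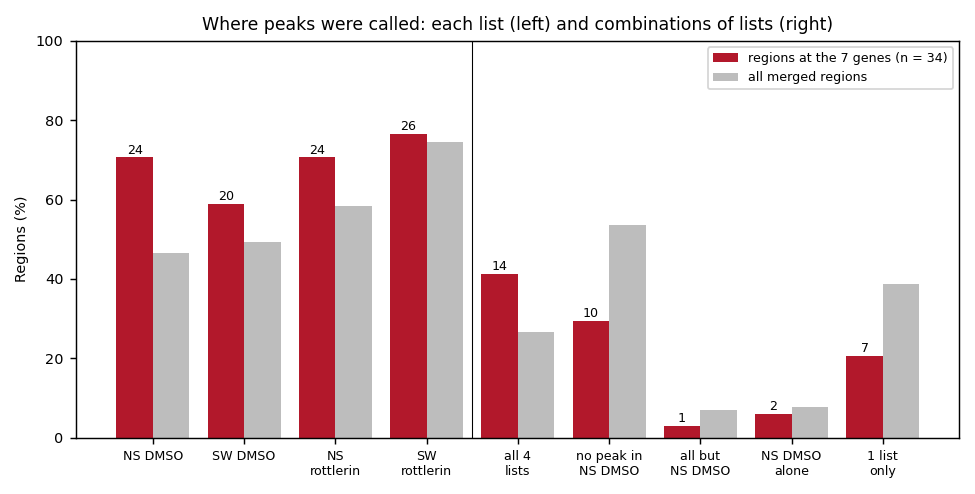
Share of regions (%, from 0) with a peak in each list (left of the line) and in combinations of lists (right), for the 34 regions at the 7 genes (red, with the number of regions above each bar) and for all merged regions (grey). The red bar is above the grey one for all 4 lists and for regions shared by all 4, and below it for regions without an NS DMSO peak.

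Regions at promoters were called in more lists throughout the genome, and the shares are therefore also given by position. Of the 34 regions, 11 lay within 1 kb of a coding TSS, as did 9900 of all 40703 merged regions. Of these 11, 9 were called in all 4 lists, where 59.8% of all such regions were. At 1 of the 11 no NS DMSO peak was called, against 29.8% of all such regions. Among the other 23 regions, 5 were called in all 4 lists (16.0% of all regions this far from a TSS) and 9 had no NS DMSO peak (61.2% of all such regions). By annotation, 17 of the 34 regions lay in introns, 4 in 5′ untranslated sequence, 4 in promoters, 4 up to 10 kb upstream of a gene, 2 in 3′ untranslated sequence, 2 between genes and 1 in another exon. For 22 regions the nearest coding TSS was the member's own, and for 12 it was that of another gene. The central 300 bp was CpG-island-like (GC at least 50% and an observed-to-expected CpG ratio of at least 0.6) in 13 regions, or 38.2%, against 21.0% of all regions.

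**Figure D2:**
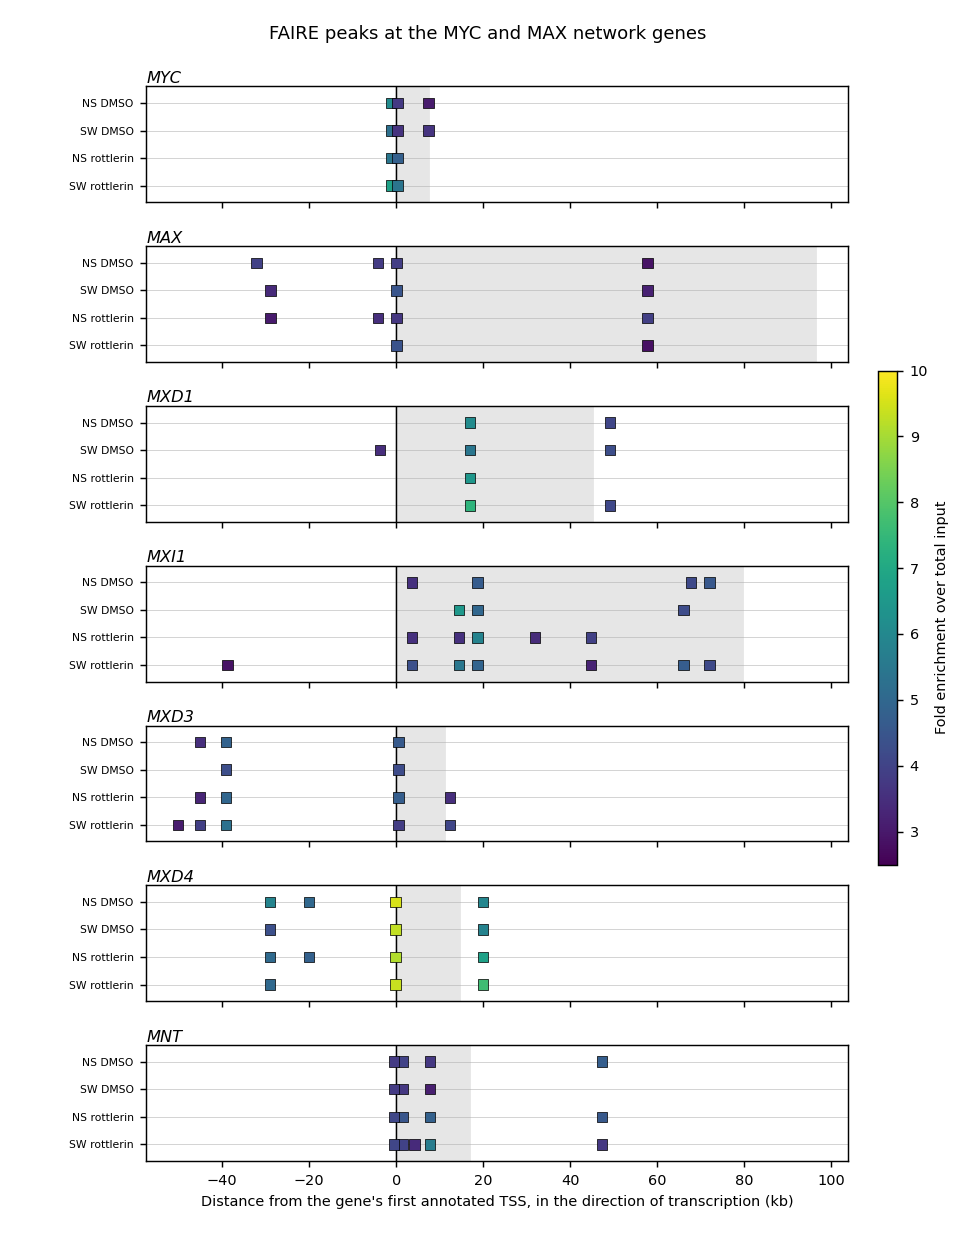
Position of each peak by list (rows) along each of the 7 genes, in kb from the first annotated TSS (vertical line) in the direction of transcription, with the gene body shaded and each square coloured by fold enrichment over total input. Regions at or near the TSS are present in all rows for MYC, MAX, MXD3, MXD4 and MNT, while the 9 MXI1 regions are spread through the gene and only the one at +18.7 kb is in every row.

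MYC, the activator of the network, had 3 regions on chromosome 8. All 3 were called in NS DMSO and in SW DMSO (against 46.5% and 49.3% of all merged regions). The region over its TSS (128747459 to 128748553, reaching into the 5′ untranslated sequence) had a fold enrichment of 3.73 in NS DMSO, 3.59 in SW DMSO, 4.78 in NS rottlerin and 5.40 in SW rottlerin. Both DMSO-labelled lists were the low pair and both rottlerin-labelled lists the high pair. A narrower region upstream, at -1.24 kb (128746292 to 128746593, within an intron of the antisense gene CASC11) was taller, at 6.08, 5.24, 5.45 and 6.79 in the same order of lists. Here SW DMSO was lowest and SW rottlerin highest. The third MYC region, over the 3′ untranslated sequence 7.40 kb from the TSS (128754731 to 128755424), had 3.05 in NS DMSO and 3.64 in SW DMSO and no peak in either rottlerin-labelled list.

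The wide interval downstream of MYC, which is poor in coding genes and is known to hold distant MYC enhancers in blood cells, was also surveyed. Between 50 kb and 2 Mb downstream of the MYC TSS there were 43 merged regions, of which 4 (9.30%, against 26.6% of all merged regions) were called in all 4 lists and 25 (58.1%, against 53.5%) had no NS DMSO peak. Of all regions over 1 kb from a coding TSS, 16.0% were called in all 4 lists and 61.2% had no NS DMSO peak. Both shares downstream of MYC were below these, and the second was close to it. The highest fold enrichment there was 6.26, in NS rottlerin, at a region 225 kb downstream that had 3.47 in NS DMSO, 4.61 in SW rottlerin and no peak in SW DMSO. The tallest of the 4 shared regions lay 258 kb downstream, with 2.99 in NS DMSO, 4.05 in SW DMSO, 3.67 in NS rottlerin and 5.49 in SW rottlerin. These regions are outside the 34, and their target genes were not measured.

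MAX, the partner with which MYC binds DNA, had 5 regions on chromosome 14. The region over its TSS (65569121 to 65569549), which holds an E-box and an ETS motif, had 3.85 in NS DMSO, 4.48 in SW DMSO, 3.70 in NS rottlerin and 4.41 in SW rottlerin. Here both SW-labelled lists were above both NS-labelled lists, which was not the order at the MYC TSS. With the labels in doubt, neither order is read as a direction by treatment. Deep in the gene, 57.8 kb from the TSS in an intron that also belongs to FNTB (65511294 to 65512007), the values were 2.88, 3.18, 3.90 and 2.82 in the same order, with NS rottlerin highest.

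The other 3 MAX regions lay upstream and were called in 1 or 2 lists each. Upstream at -4.14 kb, a wide region of 1426 bp (65572840 to 65574265) had 3.79 in NS DMSO and 3.52 in NS rottlerin, and none in either SW list. At -28.9 kb (65598126 to 65598400) the lists that had a peak were SW DMSO, at 3.39, and NS rottlerin, at 3.05. At -32.2 kb (65601418 to 65601710), between genes, NS DMSO alone had a peak, at 3.95. All 5 of these upstream values were below the median peak of their own list.

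MXI1, a MAX-binding repressor also called MXD2, had the most regions of the family, 9 on chromosome 10 within and before its 79.8 kb body. A median coding gene had 3 regions in the same kind of window, and 5.42% of 20163 coding genes had at least 9. Of the 9 regions, 5 had no NS DMSO peak, where 53.5% of all merged regions had none. They were 5 of the 10 such regions in the family, and 6.06% of coding genes had at least 5. The window includes the gene body, and these counts per gene were not adjusted for its length. SW rottlerin, the longest list, called 7 of the 9, NS rottlerin 5, NS DMSO 4 and SW DMSO 3.

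At +14.4 kb in an MXI1 intron (111981610 to 111981943), the region in every list but NS DMSO had 6.50 in SW DMSO, 3.55 in NS rottlerin and 5.48 in SW rottlerin. The SW DMSO value stood above 96.6% of the peaks of its list and the SW rottlerin value above 86.0%, whereas the NS rottlerin value was above 27.4%. Both SW-labelled lists were therefore high and NS rottlerin low, with NS DMSO not called. The first MXI1 sequence printed above is the centre of this region, and its 57.3% GC with 13 CpG dinucleotides did not meet the criteria for an island.

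Only 1 MXI1 region was called in all 4 lists. It overlapped an internal TSS of the gene 18.7 kb from the first (111985523 to 111986571), and had 4.67 in NS DMSO, 4.98 in SW DMSO, 5.84 in NS rottlerin and 4.87 in SW rottlerin. NS rottlerin was the highest and the other 3 were close together. At +3.67 kb (111970908 to 111971164) a region with the CRE motif TGACGTCA, found in 0.98% of all regions, had 3.53 in NS DMSO, 3.53 in NS rottlerin and 4.34 in SW rottlerin, and no peak in SW DMSO. No region lay over the first annotated TSS of MXI1.

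The remaining MXI1 regions were called in 1 or 2 lists. Those in introns were at +31.9 kb (3.43 in NS rottlerin), +44.8 kb (3.96 in NS rottlerin and 3.22 in SW rottlerin), +66.0 kb (4.21 in SW DMSO and 4.68 in SW rottlerin, with an E-box) and +67.8 kb (4.17 in NS DMSO). One over 3′ untranslated sequence at +71.9 kb (112039189 to 112039389) had 4.53 in NS DMSO and 4.17 in SW rottlerin. One between genes, at -38.8 kb, had 2.86 in SW rottlerin, near the low end of that list. The regions at +66.0 and +67.8 kb lay under 2 kb apart, and no list called both. How often neighbouring regions share no list was not counted over the genome.

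The limit of 50 kb was close to a further MXI1 region. It lay at -50.5 kb, with its nearest edge 380 bp past the limit, and had 3.36 in NS DMSO, 5.93 in SW DMSO, 3.78 in NS rottlerin and 5.07 in SW rottlerin. Just inside a limit was the MXD3 region at -50.1 kb, whose nearest edge was within reach and which had 3.06 in SW rottlerin alone. For the other 6 genes the next region outside the window was at least 8555 bp past it.

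MXD1 (MAD1), a repressor whose expression rises as blood cells differentiate, had 3 regions on chromosome 2. Its tallest overlapped an internal TSS 17 kb into the gene (70141273 to 70142277), with AP1 and ETS motifs, and had 6.10 in NS DMSO, 5.43 in SW DMSO, 6.46 in NS rottlerin and 7.37 in SW rottlerin. These values were above 87.7% to 98.2% of the peaks of their lists. Beyond the 3′ end, at +49.1 kb (70173766 to 70174149), the values were 4.06 in NS DMSO, 4.28 in SW DMSO and 4.14 in SW rottlerin, with NS rottlerin not called. The third, upstream at -3.72 kb (70120999 to 70121207), had 3.47 in SW DMSO alone and lay over the TSS of the neighbouring gene SNRNP27, a splicing factor. As at MXI1, no region covered the first annotated TSS, whereas a region called in all 4 lists covered a later protein-coding TSS of each gene.

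MXD3, a repressor expressed in proliferating cells, lies on chromosome 5 among other genes, and 4 of its 5 regions were nearest to the TSS of another gene. Its own promoter region (176738903 to 176739548), with its midpoint at -0.326 kb from the nearest annotated MXD3 TSS and with the E-box shown above and an EGR motif, had 4.60 in NS DMSO, 4.22 in SW DMSO, 4.70 in NS rottlerin and 3.82 in SW rottlerin. SW rottlerin was the lowest here, although it was the longest list. The region at the promoter of LMAN2, a cargo receptor of the secretory pathway, at -39.1 kb (176778634 to 176779065), had 4.83, 4.26, 4.94 and 5.26 in the same order. At the promoter of RGS14, a regulator of G protein signalling, at -45.1 kb (176784727 to 176784953), the values were 3.52 in NS DMSO, 3.29 in NS rottlerin and 3.89 in SW rottlerin. The region 12.3 kb from the TSS, beyond the 3′ end and near RAB24 and PRELID1 (176727358 to 176727546), had 3.51 in NS rottlerin and 4.06 in SW rottlerin.

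MXD4, a repressor of the family linked to quiescent and differentiated cells, had the tallest region of the 34. At its promoter on chromosome 4 (2263801 to 2264327) the fold enrichment was 9.55 in NS DMSO, 9.31 in SW DMSO, 9.15 in NS rottlerin and 9.37 in SW rottlerin, above about 99.9% of the peaks of each list. The ratio of the highest to the lowest value was 1.04, the smallest among the 14 regions called in all 4 lists. This region was CpG-rich, with 70.3% GC and 37 CpG dinucleotides in its central 300 bp.

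The other 3 MXD4 regions lay at or within neighbouring genes. Beyond the 3′ end, at the promoter of HAUS3, a subunit of the augmin complex of the mitotic spindle (2243754 to 2244129), the values were 5.93 in NS DMSO, 5.86 in SW DMSO, 6.78 in NS rottlerin and 7.68 in SW rottlerin. Within introns of ZFYVE28, at -29.0 kb (2292689 to 2293046), they were 5.88, 4.32, 5.05 and 5.03, with NS DMSO highest. At -20 kb (2283724 to 2283958) NS DMSO had 5.00 and NS rottlerin 4.81, and neither SW list had a peak. NS DMSO and NS rottlerin thus each called all 4 regions of MXD4, and NS DMSO and SW DMSO all 3 of MYC. Over all merged regions NS DMSO called 46.5%, NS rottlerin 58.4% and SW DMSO 49.3%.

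MNT, the most widely expressed MAX-binding repressor and the main antagonist of MYC in dividing cells, had 5 regions on chromosome 17. The region over its TSS (2304334 to 2305540) had 3.79 in NS DMSO, 3.81 in SW DMSO, 4.08 in NS rottlerin and 4.07 in SW rottlerin, a ratio of highest to lowest of 1.08. In the first part of the gene, at +1.55 kb (2302310 to 2303382), the values were 3.97, 3.73, 4.50 and 3.99 in the same order. At +7.77 kb, a wide intronic region of 1495 bp (2295885 to 2297379) had 3.73, 3.12, 4.81 and 5.65. This was the region of the 34 whose values differed most between lists among those shared by all 4, with a ratio of highest to lowest of 1.81.

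The last MNT regions were called in fewer lists. An intronic region at +4.14 kb (2300135 to 2300389) had 3.39 in SW rottlerin alone. One 47.3 kb from the TSS, beyond the 3′ end in an intron of SGSM2 (2257043 to 2257242), had 4.70 in NS DMSO, 4.56 in NS rottlerin and 3.72 in SW rottlerin.

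**Figure D3:**
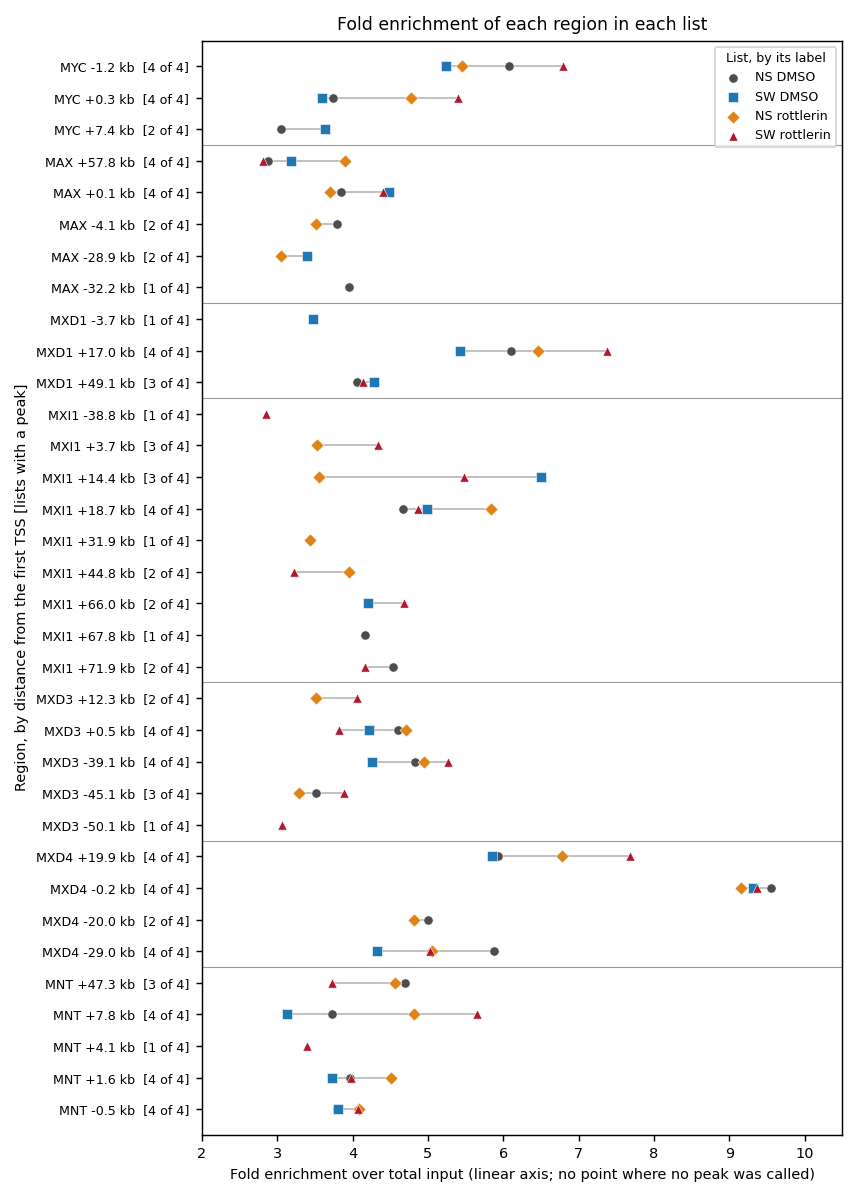
Fold enrichment over total input (linear axis) of each of the 34 regions in each list, with regions named by gene and by distance from the first TSS, the number of lists with a peak in brackets and grey lines from the lowest to the highest value. The 4 points of the MXD4 promoter lie between 9.15 and 9.55, all other points lie below 7.7, and the widest line is that of MXI1 at +14.4 kb.

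The 14 regions called in all 4 lists allowed values to be set side by side with NS DMSO at every region. In SW DMSO the ratio to NS DMSO had a median of 0.950 and ran from 0.735 to 1.16, and in all 10841 regions shared by the 4 lists its median was 0.985. None of the 14 was at least 1.5 times higher or lower, against 1.69% and 1.84% of the shared regions. In NS rottlerin the ratio had a median of 1.07 and ran from 0.859 to 1.36, with 0 regions past 1.5 in either direction, against 3.16% higher and 1.24% lower. In SW rottlerin the median was 1.08, as over all shared regions, and the range 0.830 to 1.51. Only MNT +7.8 kb was past 1.5, at 1.51, against 5.06% of shared regions higher and 1.28% lower. The median ratio of the highest to the lowest list was 1.27 both in the 14 regions and over all shared regions.

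Among the 14, the low end in SW DMSO was MXD4 -29.0 kb, at 0.735, and the high end was the MAX promoter, at 1.16. In NS rottlerin the lowest was the same MXD4 region, at 0.859, and the highest MAX +57.8 kb, at 1.36. In SW rottlerin the MYC TSS, at 1.45, came next after MNT +7.8 kb, and the MXD3 promoter was lowest, at 0.830. The 3 ratios share the NS DMSO value and are not independent of each other.

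**Figure D4:**
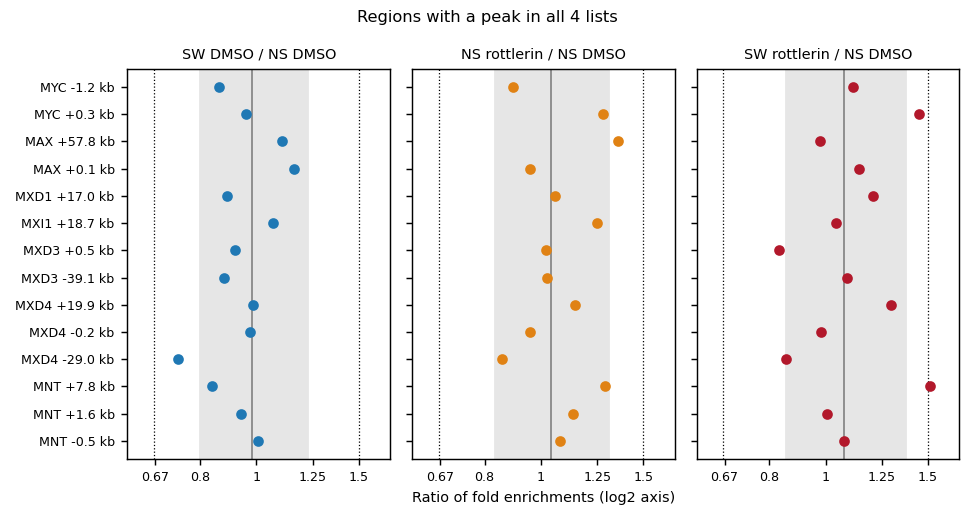
Ratio of fold enrichment to that in NS DMSO (log2 axis) for the 14 regions called in all 4 lists, with 1 panel for each other list; grey bands run from the 10th to the 90th percentile of all shared regions, grey lines mark their median, and dotted lines mark 1.5 times higher and lower. Outside the bands lie MXD4 -29.0 kb in SW DMSO (0.735, below), MAX +57.8 kb in NS rottlerin (1.36, above) and, in SW rottlerin, MYC +0.3 kb (1.45, above), MXD3 +0.5 kb (0.830, below) and MNT +7.8 kb (1.51, past the dotted line).

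The other motifs were searched in the central 300 bp of each region. AP1 was found in 6 of the 34 regions (17.9% of all regions), NFAT (TGGAAAA) in 5 (10.2%), ETS (CCGGAAG) in 4 (5.95%), RUNX (TGTGGTT) in 3 (17.7%) and GATA (the letters AGATAA) in 2 (21.0%). The 2 other E-box forms CACCTG and CAGCTG were in 5 regions each (21.4% and 17.1%), EGR (GCGGGGGCG) in 1 (2.13%), CRE in 1 (0.98%) and NFkB (GGANTTTCC) in none (1.44%). Among all regions within 1 kb of a coding TSS, ETS was in 16.7%, AP1 in 5.88%, NFAT in 4.82%, RUNX in 5.32% and GATA in 6.57%. There CACCTG was in 19.4%, CAGCTG in 15.8%, EGR in 7.10%, CRE in 2.79% and NFkB in 1.59%. The 6 AP1 regions were MAX at -4.1 and -28.9 kb, MXD1 at +17 and +49.1 kb, and MXI1 at +14.4 and +44.8 kb, and MXD1 +17 kb was the one of them called in all 4 lists. The E-box regions were called in all 4 lists, except MXI1 +66.0 kb, which both SW-labelled lists called. Most of them lay at promoters, and 59.8% of all regions within 1 kb of a coding TSS were called in all 4 lists. The same share was not counted for E-box regions over the genome.

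By the sum of fold enrichments over its regions, each gene had a profile across the 4 lists: MYC was nearly level, at 12.9 in NS DMSO, 12.5 in SW DMSO, 10.2 in NS rottlerin and 12.2 in SW rottlerin. MAX fell to its lowest sum in SW rottlerin, at 7.22, from 14.5, 11.1 and 14.2 in the other lists. MXI1 had its highest in SW rottlerin, 29.6, after 16.9, 15.7 and 20.3. MXD3 was lowest in SW DMSO, at 8.48, with 12.9 in NS DMSO, 16.5 in NS rottlerin and 20.1 in SW rottlerin. MXD4 had 26.4, 19.5, 25.8 and 22.1 in the same order as MYC above, MNT 16.2, 10.7, 18.0 and 20.8, and MXD1 10.2, 13.2, 6.46 and 11.5. These sums depend on how many regions were called.

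The coding genes with the most similar profile were found by the Euclidean distance between log2(1 + sum) over the 4 lists. They were API5 for MYC (distance 0.11), OVOL1 for MAX (0.23), HADH for MXD1 (0.19), POLR1D for MXD3 (0.11), PCBD2 for MXD4 (0.09) and OXR1 for MNT (0.13). For MXI1 the nearest were an unnamed gene, ENSG00000288637 (0.09), and PTPRN2 (0.15). With only 4 points, such profiles were common: from 37 coding genes (MAX) to 600 (MYC) lay within a distance of 0.5.

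The other genes of the extended network, MYCN, MYCL, MGA, MLX, MLXIP and MLXIPL, had 25 regions in the same windows. Of these, 10 (40.0%, against 26.6% of all merged regions) were called in all 4 lists and 10 (40.0%, against 53.5%) had no NS DMSO peak. A region 18.7 kb from the TSS of MYCL, a MYC paralogue, and nearest to TRIT1, was the one called in every list but NS DMSO, with 3.61 in SW DMSO, 3.47 in NS rottlerin and 4.17 in SW rottlerin. NS DMSO alone had a region 135 kb from the TSS of MGA, a MAX partner of repressive complexes, and nearest to MAPKBP1 (3.49). It also had one 25.9 kb upstream of MLX, the MAX-like partner of the glucose-responsive factors MLXIP and MLXIPL, and nearest to NAGLU (3.35).

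Of 24 cofactors and turnover factors of MYC and MXD proteins, all had a region, where 14.4% of coding genes had none in such a window. No NS DMSO peak was called at 50 of their 109 regions (45.9%, against 53.5% of all merged regions). In every list but NS DMSO there were 11 (10.1%), above the 7.08% of all merged regions. The tallest of these 11 lay at -18.5 kb from FBXW7, which encodes the ubiquitin ligase subunit that targets MYC for degradation, with 4.56 in SW DMSO, 6.02 in NS rottlerin and 6.66 in SW rottlerin. Next came regions at AURKA, a kinase that stabilises MYCN, with 3.11, 3.69 and 6.47 in the same order, and at WDR5, a MYC-binding chromatin protein, with 4.82, 4.12 and 5.84. ZBTB17, which encodes the MYC partner MIZ1, had 5.21, 4.82 and 5.48, and the region upstream of HUWE1, a ubiquitin ligase of MYC, had 5.06, 4.90 and 5.47.

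Of 24 known MYC targets, all had a region, where 14.4% of coding genes had none. No NS DMSO peak was called at 39 of their 100 regions (39.0%, against 53.5%). In every list but NS DMSO there were again 11 (11%, against 7.08%). The tallest were at -45.4 kb from ODC1, the rate-limiting enzyme of polyamine synthesis (4.84 in SW DMSO, 4.29 in NS rottlerin and 5.37 in SW rottlerin), and at the TSS of SLC16A1, a lactate transporter (4.95, 3.54 and 3.81). Regions at ENO1, a glycolytic enzyme (4.79, 3.56 and 4.51), and RRS1, a ribosome assembly factor (4.04, 4.74 and 4.60), followed. After them came a region 26.7 kb upstream of CDK4, a cell cycle kinase (3.43, 3.46 and 4.57), whose nearest coding TSS was that of TSFM. In all 3 groups the share without an NS DMSO peak was below the 53.5% of all merged regions, as it was for the 7 genes. The share in every list but NS DMSO was above that of all regions for the cofactors and the targets, and below it for the other network genes (4.00%) and the 7 genes (2.94%). The low shares rest on 1 region of 25 and 1 of 34, and the high ones on 11 of 109 and 11 of 100. With a 100 kb window the share of the 7 genes was 7.55%, above the 7.08% of all merged regions.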

How the data were processed

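Peak lists of 4 FAIRE-seq libraries of Jurkat cells were used, with 1 library per group. Per the study's methods and the submitters' processing notes, the authors trimmed adapters (cutadapt), aligned reads to hg19 (Bowtie2), removed duplicates (Picard) and called broad peaks against total input (MACS2; versions not given in the sources used here). The deposited columns used were the fold enrichment (a ratio over input), −log10 of the q-value and the score, which is 10 times that −log10 value written as a whole number. The stated q cut-off was 0.05, whereas the deposited lists held peaks with q up to 0.0983.

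Overlapping or touching peaks were joined across lists with pandas 2.3.3 and checked against bedtools 2.31.1 on simulated data, where all 4000 simulated regions were recovered. Of 40731 merged regions, 28 on other contigs were left out. Where a list had several peaks in a region, the highest fold enrichment was used. Genes and TSS came from GENCODE release 44 on GRCh37, and sequences from GRCh37 with pysam 0.24.0. Distances run from a gene's first annotated TSS to the midpoint of the region, negative upstream. Promoters reached 1 kb from a coding TSS. The 11 motifs and the base composition were read over the central 300 bp of each region.

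All regions of the 7 genes are named; of the other network genes those with a region in every list but NS DMSO or in NS DMSO alone; and of cofactors and targets the 5 with the highest fold enrichment in a region in every list but NS DMSO. The genes, lists and motifs were chosen with earlier results of these data known. No test between lists was run, since groups had no replicates. Alternatives varied the window, the TSS used, the joining of peaks, list length, q-value, coverage, ratio, scaling and motif window. The depth behind each peak is unknown. The part of the marker check on genes of other lineages and a site sequence are not reported here.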

Additional observations from a re-analysis of the deposited data

Results flagged for a closer look

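In the regions called in all 4 lists, the SW-labelled list was compared with the NS-labelled list under each pre-treatment label. In 10 of the 14 regions (71.4%) the direction was opposite under the DMSO and the rottlerin label, against 45.4% of all 10841 shared regions. Some of these ratios were close to 1, as at the MNT TSS (1.01 and 0.997) and the MXD4 promoter (0.974 and 1.02), so that their direction carries little. Each difference below is the log2 ratio of SW over NS under the rottlerin label minus that under the DMSO label. None was tested, since each arm is 1 library, and the labels of the lists are themselves in doubt.

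In 7 of these regions the SW value was lower under the DMSO label and higher under the rottlerin label. The differences were 0.53 at MYC -1.2 kb, 0.23 at the MYC TSS, 0.36 at MXD1 +17 kb, 0.27 at MXD3 -39.1 kb, 0.20 at MXD4 +19.9 kb, 0.072 at the MXD4 promoter and 0.49 at MNT +7.8 kb. In the other 3 it was the reverse, with -0.62 at MAX +57.8 kb, -0.36 at MXI1 +18.7 kb and -0.0118 at the MNT TSS.

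At a further pair of regions a peak was called in 1 list under each label, and in the opposite state, a pattern found in 2 of the 34 regions (5.88%) and in 2.39% of all merged regions. MAX -28.9 kb, with a highest fold enrichment of 3.39, was called in SW DMSO and NS rottlerin. MXI1 +71.9 kb, with a highest value of 4.53, was called in NS DMSO and SW rottlerin.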

How the results depend on the processing

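No paired analysis was possible because each group had 1 library and no result came from a test. Over 6 counts and 42 alternative values, 25 were within 1.5 times the reported count and 17 were not; the directions against all merged regions named here are descriptions. With a 10 kb window, 6 of 22 regions had no NS DMSO peak (against 53.5% of all regions) and 4 were in 1 list only (against 38.8%). With a 100 kb window, 18 of 53 regions had no NS DMSO peak (against 53.5% of all) and 13 were in 1 list only (against 38.8%). In that window 4 were in every list but NS DMSO (7.55%, against 7.08% of all regions, where the reported share was 2.94%). With windows around every annotated TSS, 3 of 38 regions were in every list but NS DMSO, a share of 7.90% against 7.08% of all regions. With the same number of peaks in each list, 6 of 30 regions had no NS DMSO peak, against 41.5% of all. In the higher-scoring 50% of each list, 4 of 19 had none, 0 were in every list but NS DMSO and 3 in 1 list only. The shares of all regions there were 52.1%, 6.9% and 36.7% in the same order. Where a peak had to cover at least 50% of the region, 7 of 34 regions were in all 4 lists (20.6%, against 18.6% of all). Under this rule 2 were in every list but NS DMSO (against 6.32%) and 11 in 1 list only (against 46.4%). At a ratio of 5 to 4, 6 of 14 shared regions differed from NS DMSO (42.9%, against 42.4%). At a ratio of 2, 0 did (against 0.56% of all shared regions), and after division by each list's median 0 did (against 9.29%). Over whole regions 8 of the 34 held the E-box, against 7.90% of all regions. In every one of the 9 alternatives to the main choice, the share of regions without an NS DMSO peak stayed below that of all regions. The unknown depth of each library limits what a missing peak can show.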
